A study of Homo sapiens with 24 samples.

Results

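The interaction of GPD1 with metformin was examined in A549 cells, an established human lung carcinoma line, as the difference between 2 metformin effects. For each gene, the metformin change in cells that overexpress GPD1 was compared with the metformin change in vector cells: (GPD1 with metformin minus GPD1 untreated) minus (vector with metformin minus vector untreated), on log2(FPKM + 1). FPKM is the number of fragments per kilobase of transcript, scaled to the number of mapped fragments. All 12 libraries of the A549 table entered, and the genes examined were the 12607 of 58302 listed genes whose level averaged 1 FPKM or more across all 12. A positive interaction means that the metformin change was higher in GPD1 cells, either because the gene rose more or because it fell less. A negative interaction means the reverse.

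The enzyme encoded by GPD1 works in the cytosol, where it oxidises NADH and reduces dihydroxyacetone phosphate to glycerol 3-phosphate. That product is the backbone of glycerolipids and also passes electrons to the mitochondrial enzyme GPD2. Metformin, a biguanide given in diabetes, inhibits respiratory complex I and, at millimolar concentrations, slows the growth of many cultured cells. An interaction asks whether a cell with more of this dehydrogenase answers the drug differently, over and above any difference that is already there without the drug.

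The study raised GPD1 in lines with little of it and asked how the enzyme acts on cancer cell growth in the presence and absence of metformin. Vector cells were A549 cells given a blank lentivirus, and GPD1 cells were A549 cells given a lentivirus for GPD1. Each was cultured with 10 mM metformin or without it, with 3 libraries of polyadenylated RNA for each of the 4 groups. The sources used here give neither the promoter of the lentivirus nor the length of the treatment, and do not say whether replicate libraries stem from different cultures or transductions. The p-values therefore reflect only how far replicate libraries differ, a spread that may be technical.

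The libraries held 13.3 M to 18 M reads or fragments, as recovered from the steps of the low values, and 1 read on 1 kb was worth 0.0555 to 0.0752 FPKM. Between 25471 and 26739 genes were above 0 in the untreated libraries, 24688 to 25099 in vector cells with metformin and 23472 to 23993 in GPD1 cells with metformin. Genes of the mitochondrial genome took 32.9% to 33.2% of all FPKM in untreated vector cells, 13.7% to 14.9% in vector cells with metformin, 30.2% to 32.3% in untreated GPD1 cells and 10.3% to 11.4% in GPD1 cells with metformin. The part of these shifts in the interactions below was not tested. The A549 markers KRT7, KRT8, KRT18, AKR1B10, AKR1C1 and AKR1C3 summed to between 1309 and 2665 FPKM in every library. Of 12 lung lineage genes 2 had a mean of at least 1 FPKM, FOXA2 (25.6) and FOXA1 (3.15), while NKX2-1 reached at most 0.0549 FPKM and SFTPA1 was listed at 0. Of 12 kidney lineage genes 5 had such a mean, NNMT (20.3), CDH16 (1.83), PAX2 (1.22), CDH6 (1.14) and HOXD8 (1.07), while PAX8 reached at most 0.162 FPKM and UMOD and SLC22A6 were listed at 0.

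GPD1 itself followed its labels. In the 3 untreated vector libraries it was at 0.0873, 0.103 and 0.0408 FPKM, and in vector cells with metformin at 0.0662, 0.0702 and 0.0248. In untreated GPD1 cells it was at 15.7, 16.8 and 15.1 FPKM, and in GPD1 cells with metformin at 13.3, 13.8 and 13.3. The 6 libraries of GPD1 cells were all far above the 6 of vector cells, which lay at the level of a few reads. The interaction of GPD1 was -0.19 (SE 0.07) and did not pass (adjusted p = 0.0523, limma), and scaling by upper-quartile factors turned it to 0.25 (adjusted p = 0.0179).

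Of the 12607 genes, 5791 had an interaction with an adjusted p under 0.05 (limma, Benjamini-Hochberg), which is 45.9% of those tested (6644 at an unadjusted p under 0.05). The metformin change was higher in GPD1 cells for 2407 genes (19.1%) and lower for 3384 (26.8%). Their median absolute size was 0.54 log2 units. At least 1 log2 unit was reached by 147 genes in the higher direction (1.17%) and by 716 in the lower (5.68%). Higher genes made up 41.6% of the calls, but 61.5% after scaling by upper-quartile factors, 59.5% after centring each library on its median, 54.7% with a transcript length trend removed and 54.8% with a GC trend removed. The balance of directions therefore depends on the scaling, and the median interaction of all tested genes moved from -0.04 to 0.12 with upper-quartile factors and to 0.10 with centring. Among the genes past 1 log2 unit, the lower ones outnumbered the higher ones under every scaling tried (471 against 289 with upper-quartile factors). The number past 1 log2 unit depends on the constant added to FPKM: with 0.1 in place of 1 it was 1234 lower and 345 higher.

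The metformin changes behind these interactions took several forms. Metformin alone raised 3948 genes (31.3%) and lowered 5463 (43.3%) in vector cells, and raised 3293 (26.1%) and lowered 6056 (48%) in GPD1 cells. Among the 2407 higher genes, the largest class were the 1046 that fell in both populations but fell less in GPD1 cells, followed by 514 for which only the fall in vector cells passed. Among the 3384 lower genes, 875 fell in both and fell further in GPD1 cells, 672 fell with only the GPD1 change passing, and 642 rose in both but rose less in GPD1 cells. For 799 genes (6.34%) both metformin changes passed with opposite signs. Of these, 603 rose in vector cells and fell in GPD1 cells, and 196 did the reverse.

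**Figure D1:**
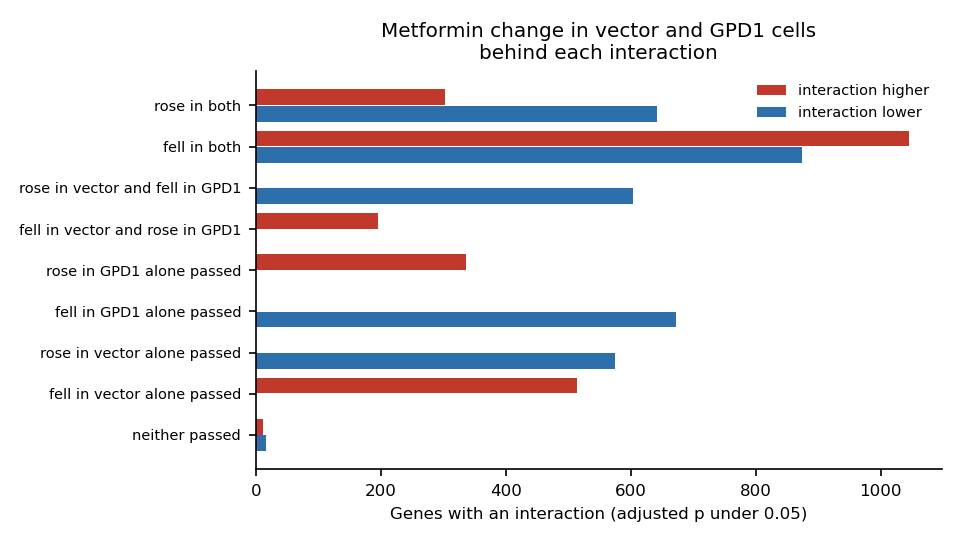
Number of genes with an interaction (adjusted p under 0.05, x axis) by what metformin did in vector and in GPD1 cells (y axis), in red where the metformin change was higher in GPD1 cells and in blue where it was lower. The longest bar is the 1046 genes that fell in both populations and fell less in GPD1 cells.

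The differences appeared mostly in the presence of the drug. Among the higher genes, GPD1 and vector cells differed (adjusted p under 0.05) for 34.7% without metformin and for 83.1% with it. Among the lower genes the shares were 23.2% and 92.9%, and among all tested genes 21.3% and 60.0%. The comparisons share libraries with the interaction, so these shares describe where the called differences lie and are no further test.

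**Figure D2:**
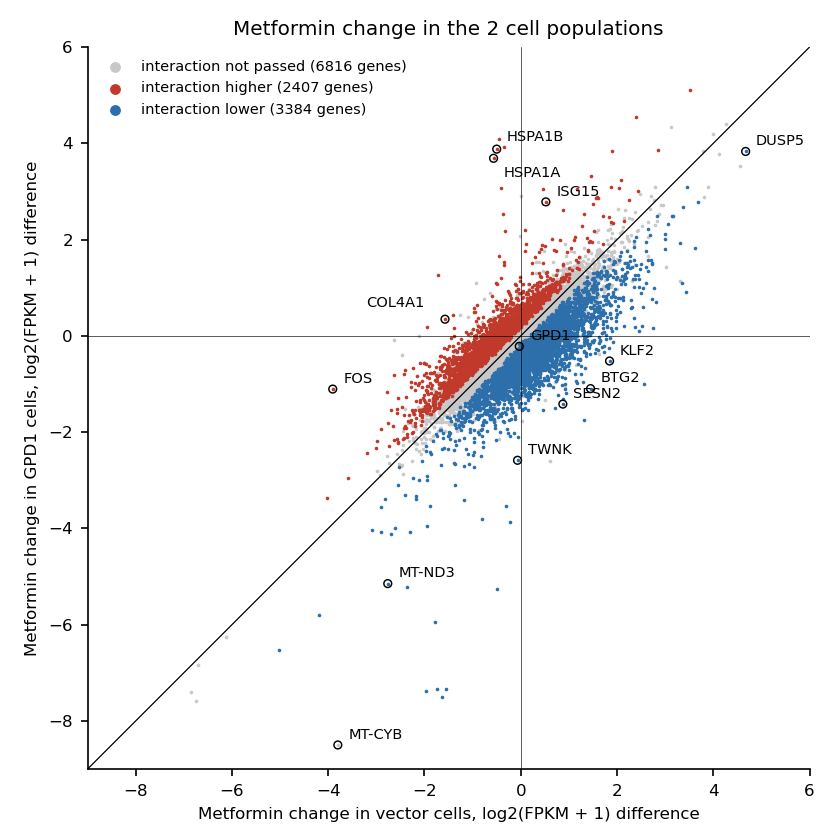
Metformin change of each of the 12607 tested genes in vector cells (x axis) against GPD1 cells (y axis), both as differences of log2(FPKM + 1), with equal changes on the diagonal line. Red genes (2407) lie above the line and blue genes (3384) below it, and grey genes did not pass. HSPA1A, HSPA1B and ISG15 stand high above the line and TWNK and MT-ND3 far below it.

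The 2 largest higher interactions of protein-coding genes were those of HSPA1B and HSPA1A, neighbouring genes that encode the stress-inducible cytosolic chaperone HSP70. HSPA1A (GRCh38 chromosome 6, 31815464 to 31817946) was at 52.4, 49.7 and 52.9 FPKM in untreated vector cells and at 23.8, 31.2 and 55.5 with metformin. In GPD1 cells it was at 47.5, 49.4 and 51.5 FPKM untreated and at 741, 632 and 584 with it. The 3 libraries of GPD1 cells with metformin stood far above the other 9, while the vector libraries with metformin were spread on both sides of the untreated ones. The mean rose 13.2-fold in GPD1 cells, and the interaction was 4.25 (SE 0.32, adjusted p = 3.8e-06). HSPA1B (chromosome 6, 31827735 to 31830255) moved from 15.5, 14.4 and 14.7 to 271, 223 and 208 FPKM in GPD1 cells, with an interaction of 4.38 (SE 0.34, adjusted p = 4.3e-06). The coding sequences of the pair are nearly identical, so reads may be shared between them and their values are not independent.

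The promoters of this pair are shown because both genes moved together. The windows are the 250 bases before each start in RefSeq (GRCh38.p14), HSPA1A at chr6:31815293-31815542 and HSPA1B at chr6:31827488-31827737, both on the plus strand, and capitals mark a match to GAANNTTC, a core of the heat shock element, the site bound by HSF1.
HSPA1A: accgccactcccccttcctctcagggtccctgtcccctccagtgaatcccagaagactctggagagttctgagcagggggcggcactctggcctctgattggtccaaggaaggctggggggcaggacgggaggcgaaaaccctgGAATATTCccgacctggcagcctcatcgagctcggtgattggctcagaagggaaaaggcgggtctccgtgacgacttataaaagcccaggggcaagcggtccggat
HSPA1B: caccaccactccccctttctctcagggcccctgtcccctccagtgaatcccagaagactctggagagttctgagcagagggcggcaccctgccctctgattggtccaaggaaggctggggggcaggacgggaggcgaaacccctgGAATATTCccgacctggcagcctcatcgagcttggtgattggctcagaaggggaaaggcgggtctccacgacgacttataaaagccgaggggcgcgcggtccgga
The match GAATATTC lay 106 to 99 bases before the HSPA1A start and 105 to 98 bases before the HSPA1B start. The 2 windows were identical at 235 of 249 aligned bases (94.4%). GAANNTTC, which reads the same on both strands, occurs in 5.80% of 34943 RefSeq promoter windows of this length, and the other phase searched, TTCNNGAA, in 6.62%. A match describes the letters and shows no binding.

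Other cytosolic heat shock genes did not move as a block. Of 20 tested members of this list, which include HSPA1A and HSPA1B, 6 were higher and 3 lower (12 and 3 with upper-quartile factors). The median interaction of the list was 0.11 against -0.04 for all tested genes. The 6 higher and 3 lower genes, the pair again included, are shares of 30% and 15%. Among all tested genes 19.1% were higher and 26.8% lower. The counts of every list or group of genes below are to be read against the same 2 shares. HSPB1, a small heat shock protein, was at 183, 181 and 181 FPKM in untreated GPD1 cells and at 491, 444 and 412 with metformin, while vector cells went from 151, 157 and 145 to 165, 178 and 189 (interaction 1.07, SE 0.09, adjusted p = 8.5e-06). HSPA8, the constitutive HSP70 protein, had an interaction of 0.90 (SE 0.16, adjusted p = 0.00113). STIP1, HSPA4 and DNAJA1, which encode a cochaperone scaffold, a nucleotide exchange factor and a J-domain protein, were lower, at -0.71, -0.59 and -0.57. DNAJB1 (0.19), HSPH1 (0.28) and BAG3 (0.01), other genes of the heat shock response, did not pass. HSPA6, the strictly inducible HSP70 gene, is on no list and was chosen after its values were seen. It was at 0.594, 0.352 and 0.696 FPKM in vector cells with metformin and at 9.50, 7.12 and 7.30 in GPD1 cells with metformin, with no untreated library above 0.204 (interaction 2.59, SE 0.16, adjusted p = 1.2e-06).

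FOS, the protein-coding gene with the next largest higher interaction, encodes a subunit of the AP-1 transcription factor and is an immediate-early gene, induced within minutes by growth factor signalling. FOS was at 22.1, 21.6 and 25.6 FPKM in untreated vector cells and at 0.538, 0.477 and 0.816 with metformin. In GPD1 cells it was at 19.4, 22.7 and 22.4 FPKM without metformin and at 12, 8.62 and 8.02 with it. Metformin lowered FOS in both populations, 37.9-fold in vector cells but 2.25-fold in GPD1 cells (interaction 2.80, SE 0.19, adjusted p = 2.0e-06). EGR1, a zinc finger immediate-early factor, fell 22.6-fold in vector cells and 13.5-fold in GPD1 cells (interaction 0.66, SE 0.11, adjusted p = 6.1e-04).

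Of 23 tested members of the list of immediate-early genes and feedback inhibitors of ERK 5 were higher and 8 lower, with a median of -0.00 (9 and 6 with upper-quartile factors). The shares, 21.7% higher and 34.8% lower, stand beside 19.1% and 26.8% of all tested genes. The 5 higher genes were the AP-1 subunits FOS, FOSL1 (0.63), JUNB (0.62) and JUN (0.32) with EGR1. The lower ones were AP-1 subunit FOSL2 (-0.34), the ETS factor ETV5 (-0.48) and 6 inhibitors of the pathway: SPRY4 (-0.87), DUSP5 (-0.84), DUSP4 (-0.73), SPRED1 (-0.69), DUSP6 (-0.40) and SPRY2 (-0.37). The AP-1 subunits FOSB (0.50) and JUND (0.12) and the inhibitors DUSP1 (-0.14), DUSP10 (0.09) and SPRED2 (-0.00) did not pass. DUSP5, a nuclear phosphatase for ERK, was the most strongly induced of these. It rose from 16.5, 16.9 and 15.9 to 418, 443 and 469 FPKM in vector cells, and from 44.6, 44.7 and 46.0 to 634, 658 and 673 in GPD1 cells, so its level was highest in GPD1 cells with metformin although its rise was smaller there. MYC was uneven between libraries (7.80 FPKM in 1 untreated vector library against 0.667 and 0.665 in the others, and 18.2 in 1 library of GPD1 cells with metformin against 1.18 and 1.20), and its interaction of -1.59 did not pass (adjusted p = 0.291).

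ISG15, which encodes a ubiquitin-like protein induced by interferon, had an interaction of 2.26 (SE 0.12, adjusted p = 4.9e-07). Its level was 3.65, 3.09 and 3.82 FPKM in untreated vector cells, 4.97, 5.35 and 6.15 in vector cells with metformin, 5.00, 4.33 and 4.10 in untreated GPD1 cells and 36.0, 36.6 and 37.1 in GPD1 cells with metformin. The last group stood apart from the other 9 libraries, with an 8.17-fold rise against 1.56-fold in vector cells. The promoter window of ISG15 in RefSeq (GRCh38.p14, chr1:1013247-1013496, plus strand) is shown because it holds the sequence for which the gene is known, the interferon-stimulated response element, and capitals mark 2 overlapping matches to its core, which is GAAA, any 2 bases and GAAA again.
ISG15: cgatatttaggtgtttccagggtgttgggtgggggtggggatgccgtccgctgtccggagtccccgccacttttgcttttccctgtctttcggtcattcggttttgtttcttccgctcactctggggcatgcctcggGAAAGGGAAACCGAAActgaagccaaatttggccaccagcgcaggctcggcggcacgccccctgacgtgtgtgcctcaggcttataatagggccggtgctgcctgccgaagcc
The matches lay 113 to 104 and 107 to 98 bases before the start. Searched on both strands, this core occurs in 3.02% of the 34943 windows.

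Other interferon response genes moved less. Of 14 tested members of this list, which include ISG15, 7 were higher and 1 was lower, with a median of 0.31. OAS3, an antiviral oligoadenylate synthetase, had an interaction of 0.73 because it fell 2.80-fold in vector cells and 1.57-fold in GPD1 cells. IFI6 (0.65), the immunoproteasome subunits PSMB9 (0.51) and PSMB8 (0.48) and the RNA sensor DDX58 (0.40) were among the other higher members. IRF9, the DNA-binding subunit of the ISGF3 complex, was the lower one at -0.67. IFIT3, a classical interferon-induced gene, did not pass (0.21), and 10 of the 24 listed genes were below the expression filter.

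COL4A1 and COL4A2 encode the 2 chains of the main type IV collagen and lie head to head on chromosome 13. COL4A1 (chromosome 13, 110148963 to 110307149) was at 44.9, 41.7 and 43.5 FPKM in untreated vector cells and at 14.5, 13.6 and 13.5 with metformin, and at 17.4, 17.8 and 16.8 in untreated GPD1 cells against 21.5, 22.6 and 22.8 with metformin. Metformin lowered it 3.12-fold in vector cells and raised it 1.29-fold in GPD1 cells, with no overlap between treated and untreated libraries of either population (interaction 1.92, SE 0.06, adjusted p = 5.4e-08). COL4A2 went from 51.3, 50.4 and 49.6 to 18.2, 17.5 and 19.5 FPKM in vector cells and from 23.5, 22.9 and 22.2 to 31.2, 30.2 and 32.7 in GPD1 cells (interaction 1.85, SE 0.07, adjusted p = 1.2e-07). Both genes also differed before treatment, since untreated GPD1 cells held less of each than untreated vector cells.

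The 126 bases between the 2 RefSeq starts (GRCh38.p14, chr13:110307158-110307283, written on the plus strand, on which COL4A2 is read and COL4A1 is read the other way) are the region that the pair shares. Their GC content was 80.2%, and no base is capitalised because no motif was marked.
COL4A1 and COL4A2: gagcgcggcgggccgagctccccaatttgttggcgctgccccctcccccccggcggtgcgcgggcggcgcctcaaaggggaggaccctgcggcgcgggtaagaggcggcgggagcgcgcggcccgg

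COL18A1, a basement membrane collagen whose fragment is endostatin, behaved in the same way: vector cells went from 58.3, 54.1 and 55.9 to 29.9, 30.8 and 35.4 FPKM and GPD1 cells from 50.2, 50.8 and 51.4 to 69.7, 65.5 and 64.6 (interaction 1.18, SE 0.08, adjusted p = 2.6e-06). COL5A1, a fibrillar collagen chosen after its values were seen, fell 10.6-fold in vector cells and 2.73-fold in GPD1 cells (interaction 1.63, SE 0.09, adjusted p = 7.6e-07). Taken by symbol after the results were seen, 10 of 15 tested collagen genes were higher and 1, COL4A6, was lower, and of 6 laminin genes 3 were higher and 0 lower, with median metformin changes of 0.21 in vector cells and 0.37 in GPD1 cells. ITGB4, the integrin subunit of hemidesmosomes, fell 1.45-fold in vector cells and rose 1.54-fold in GPD1 cells (interaction 1.13, SE 0.05, adjusted p = 3.6e-07). TNS4, a focal adhesion tensin, fell 7.81-fold in vector cells and 1.78-fold in GPD1 cells (interaction 1.81, SE 0.12, adjusted p = 1.6e-06).

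In the list of epithelial and mesenchymal genes 5 of 18 tested were higher and 3 lower, with a median of 0.00 (7 and 1 with upper-quartile factors). CDH1, the epithelial cadherin, was at 9.24, 9.29 and 9.25 FPKM in untreated vector cells and at 2.26, 2.49 and 2.94 with metformin. In GPD1 cells it was at 3.39, 4.81 and 4.32 FPKM without metformin and at 3.23, 2.90 and 3.62 with it (interaction 1.25, SE 0.15, adjusted p = 6.9e-05). The drop was wide in vector cells, while treated and untreated GPD1 libraries overlapped. The mesenchymal genes CDH2 (0.03), FN1 (0.06), VIM (0.29) and ZEB1 (-0.07) did not pass.

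**Figure D3:**
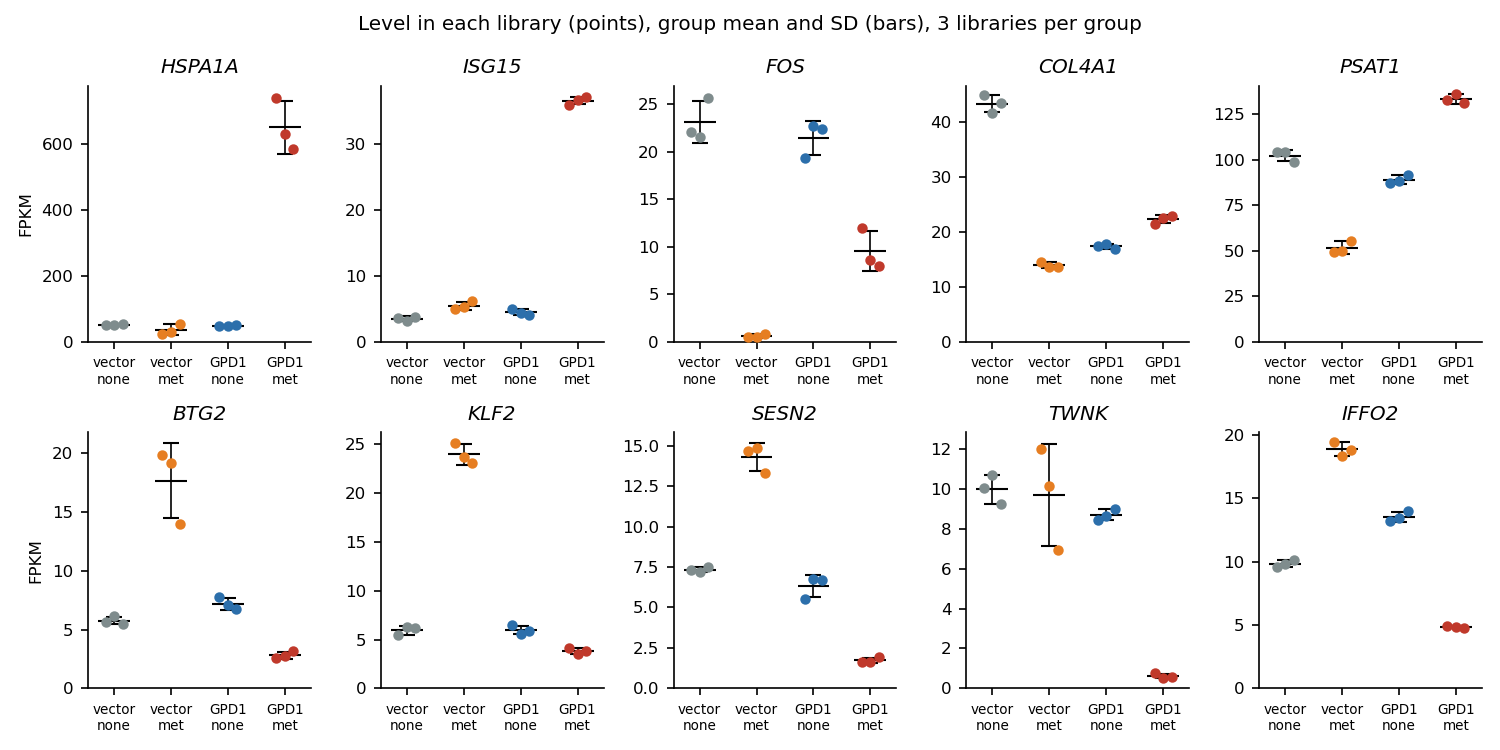
Level in FPKM (y axis, from 0) of 10 genes in each of the 12 libraries (points) by group (x axis: vector or GPD1 cells, none or metformin), with the group mean and SD as bars, n = 3 per group. HSPA1A and ISG15 are high in GPD1 cells with metformin alone, FOS and COL4A1 are lowest in vector cells with metformin, and BTG2, KLF2, SESN2 and IFFO2 rise in vector cells and fall in GPD1 cells.

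The opposite pattern, a rise with metformin in vector cells and a fall in GPD1 cells, held for 603 genes, and it included 7 of the 10 lower genes named by size. BTG2, an antiproliferative p53 target, was at 5.68, 6.11 and 5.50 FPKM in untreated vector cells and at 19.8, 19.1 and 14 with metformin. In GPD1 cells it was at 7.72, 7.07 and 6.73 FPKM without metformin and at 2.58, 2.74 and 3.16 with it. Treated and untreated libraries did not overlap in either population, and the direction reversed (interaction -2.55, SE 0.16, adjusted p = 1.2e-06). KLF2, a Krüppel-like transcription factor, rose 4.02-fold in vector cells (from 5.44, 6.30 and 6.15 to 25.1, 23.7 and 23.1 FPKM) and fell 1.55-fold in GPD1 cells (from 6.48, 5.61 and 5.85 to 4.16, 3.56 and 3.85). Its interaction was -2.37 (SE 0.10, adjusted p = 2.3e-07).

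SESN2 encodes sestrin 2, a stress-induced leucine sensor that restrains mTORC1. In vector cells it went from 7.31, 7.20 and 7.52 to 14.7, 14.9 and 13.3 FPKM, and in GPD1 cells from 5.52, 6.76 and 6.70 to 1.63, 1.66 and 1.93. It therefore rose 1.95-fold in the one and fell 3.64-fold in the other (interaction -2.29, SE 0.11, adjusted p = 3.4e-07). JMY, an actin nucleator that binds the p53 coactivator p300, rose 3.89-fold in vector cells and fell 1.37-fold in GPD1 cells (interaction -2.06, SE 0.11). IFFO2, an intermediate filament family gene, had the smallest adjusted p of the named genes (1.7e-08), with 9.61, 9.77 and 10.2 rising to 19.5, 18.4 and 18.8 FPKM in vector cells and 13.2, 13.4 and 14 falling to 4.92, 4.85 and 4.77 in GPD1 cells. ASB1, a SOCS box protein, had an interaction of -2.04 (SE 0.27), and NACC2, a BTB domain repressor, of -2.05 (SE 0.10) because it fell 5.49-fold in GPD1 cells while its vector change did not pass.

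Further reversals had smaller interactions. Lower were SPTY2D1 (-1.84), a histone chaperone, MTMR4 (-1.79), a phosphoinositide phosphatase of endosomes, SDE2 (-1.73), a replication and splicing factor, MARS2 (-1.67), the mitochondrial methionyl-tRNA synthetase, GLIS2 (-1.66), a zinc finger factor, and ANKRD33B (-2.02). Higher were PSAT1 (1.55), DYNLT1 (1.45), a dynein light chain, UPK3B (1.25), an uroplakin, CXCL5 (1.21), a neutrophil chemokine, and APOC1 (1.19), an apolipoprotein. RHOV (1.8) and TCEA1, a transcription elongation factor (1.68), were higher because they rose 4.46-fold and 4.10-fold in GPD1 cells, with no passing change in vector cells. FAM102A and TMEM265 passed with wide errors (SE 0.53 and 0.57). FAM102A was at 7.77, 19.1 and 8.36 FPKM in vector cells with metformin, and TMEM265 at 3.81, 13.2 and 17.1.

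The mitochondrial genome encodes subunits of the respiratory chain together with the RNAs to translate them. Its protein-coding genes fell with metformin in both populations, and most fell further in GPD1 cells. Of the 13 protein-coding genes, 10 were lower and 0 higher, with a median of -0.89. At an unadjusted p under 0.05 the counts were also 10 and 0 (limma). MT-ND3, a core subunit of complex I, was at 2154, 1989.9 and 2147 FPKM in untreated vector cells and at 399, 322 and 227 with metformin, and at 1893, 1980.2 and 2206 in untreated GPD1 cells against 55.4, 55.6 and 57.3 with metformin. All 3 treated GPD1 libraries lay below all 3 treated vector libraries (interaction -2.38, SE 0.22, adjusted p = 1.3e-05). MT-ND1 (-2.02), MT-ND6 (-1.64) and MT-ND5 (-1.38) followed, all subunits of complex I. MT-ND4 (-0.05), also of complex I, and MT-ATP6 (-0.23), of ATP synthase, did not pass. MT-CYB, the complex III subunit, was at 191, 0 and 0 FPKM in GPD1 cells with metformin and between 229 and 240.1 in vector cells with metformin, and did not pass (adjusted p = 0.109). The value of 0 for so abundant a transcript can be a failed estimate.

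The short RNA genes of the same genome showed the 5 largest lower interactions of all tested genes, and were chosen after their values were seen. All 22 mitochondrial tRNA genes passed the filter, 15 were lower and 0 higher (16 and 0 at an unadjusted p under 0.05, limma), and the median was -1.56. MT-TY, the tRNA gene for tyrosine (mitochondrial genome, 5826 to 5891, minus strand), was at 1621, 1741 and 1644 FPKM in untreated vector cells and at 665, 585 and 402 with metformin. In GPD1 cells it was at 2015, 2153 and 2083 FPKM without metformin and at 6.23, 12.3 and 14.7 with it. The fall was 3.03-fold in vector cells and 188-fold in GPD1 cells (interaction -5.88, SE 0.36, adjusted p = 1.0e-06). Its neighbours MT-TC, MT-TN and MT-TA, which together with MT-TY span 5587 to 5891 on the minus strand, had interactions of -5.78, -5.59 and -5.41. MT-TF, on the plus strand, was the other of the 5, at -4.76 (SE 0.28, adjusted p = 9.5e-07, limma). MT-TH, also on the plus strand, fell 159-fold in vector cells and 238-fold in GPD1 cells and did not pass (-0.14). Of the 14 tRNA genes on the plus strand 9 were lower, and of the 8 on the minus strand 6 were. The genes are 59 to 75 bases long, so their FPKM rests on short fragments or on reads that run in from precursor RNA, and polyadenylated RNA is not a measure of mature tRNA.

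The mitochondrial ribosomal RNAs moved the other way. MT-RNR2, the large rRNA, was at 11643, 11838 and 11154 FPKM in untreated vector cells and at 14203, 14409.6 and 14987 with metformin, and at 8909, 9279.9 and 9235 in untreated GPD1 cells against 15816, 17265 and 17131 with metformin. It rose in both populations and more in GPD1 cells (interaction 0.54, SE 0.06, adjusted p = 6.9e-05). MT-RNR1, the small rRNA, had an interaction of 0.33 (SE 0.09, adjusted p = 0.0158).

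Nuclear genes that copy and transcribe the mitochondrial genome or act on its RNA were mostly lower. Of 18 tested members of this list 11 were lower and 1 was higher, with a median of -0.44 (8 and 3 with upper-quartile factors). TWNK, the mitochondrial DNA helicase Twinkle, was at 10.0, 10.7 and 9.24 FPKM in untreated vector cells and at 12, 10.1 and 6.94 with metformin. In GPD1 cells it was at 8.45, 8.66 and 9.01 FPKM without metformin and at 0.747, 0.525 and 0.587 with it. The vector libraries overlapped, while GPD1 cells lost 14-fold (interaction -2.52, SE 0.20, adjusted p = 5.3e-06). TFB2M, a factor that opens mitochondrial promoters, rose 1.68-fold in vector cells and fell 1.55-fold in GPD1 cells (interaction -1.30, SE 0.12). TFAM, which packages mitochondrial DNA and starts its transcription, fell 1.29-fold in vector cells and 2.57-fold in GPD1 cells (interaction -0.84, SE 0.08). The poly(A) polymerase MTPAP (-0.65), the polymerase subunits POLG2 (-0.54) and POLG (-0.49) and the RNA polymerase POLRMT (-0.48) were also lower. LRPPRC, which stabilises mitochondrial mRNA, was the higher one at 0.23.

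Of 37 tested nuclear subunits of complex I, 8 were higher and 1, NDUFA8, was lower, with a median of 0.13, and the share of higher genes (21.6%) was near the 19.1% of all tested genes. With upper-quartile factors 21 were higher. The higher ones included NDUFA11, an accessory subunit of the membrane arm (0.61), NDUFC2 (0.43) and NDUFB7 (0.38).

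**Figure D4:**
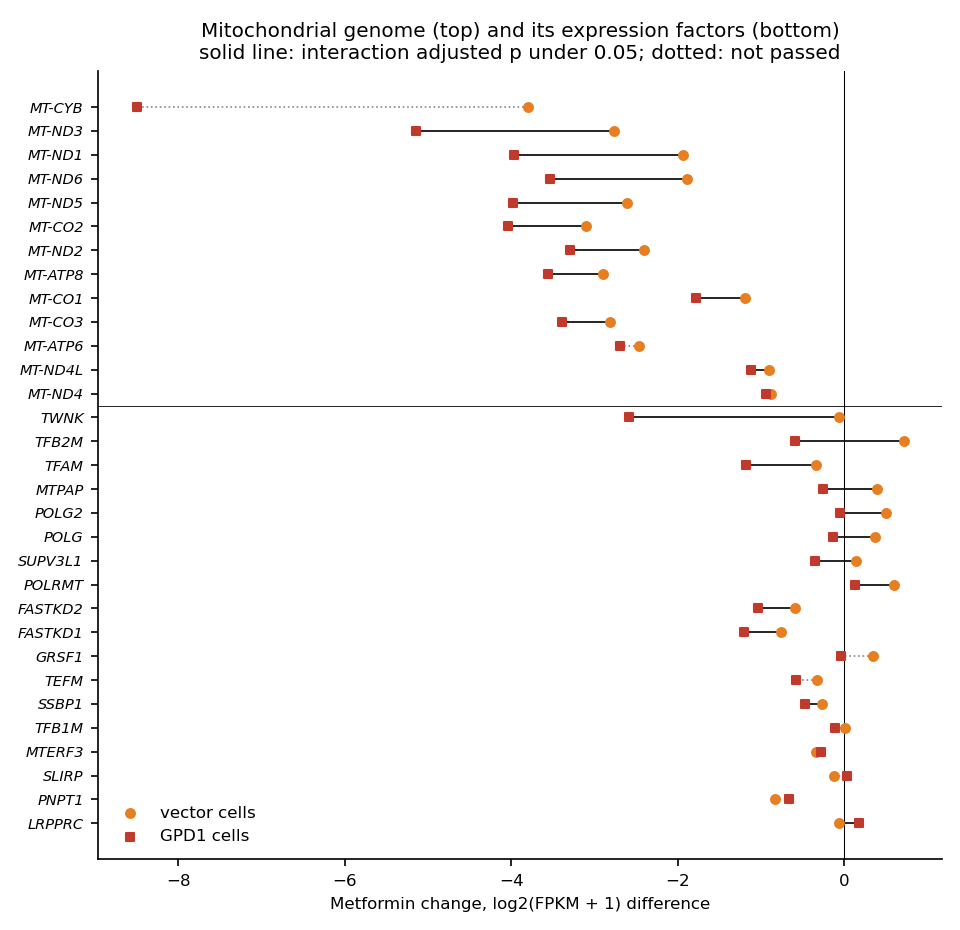
Metformin change as a difference of log2(FPKM + 1) (x axis) in vector cells (circles) and GPD1 cells (squares) for the 13 protein-coding genes of the mitochondrial genome (above the horizontal line) and 18 nuclear genes for its expression (below it), joined by a solid line where the interaction passed and a dotted one where it did not. MT-ND3 and TWNK show the widest solid lines, and MT-CYB, with 2 libraries listed at 0, the widest dotted one.

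Genes next to GPD1 in metabolism had small interactions. Of 13 tested genes of the NADH shuttles and glycerol 3-phosphate, GPD1 included, 2 were higher and 0 lower (3 and 1 at an unadjusted p under 0.05, limma), with a median of 0.08. With upper-quartile factors 8 were higher. GOT2, the mitochondrial aspartate aminotransferase of the malate-aspartate shuttle, fell 1.24-fold in vector cells and rose 1.10-fold in GPD1 cells (interaction 0.43, SE 0.06). LDHB, a lactate dehydrogenase subunit, rose 1.17-fold and 1.52-fold (interaction 0.37, SE 0.06). GPD2, the mitochondrial partner of GPD1, was at 6.4, 6.64 and 6.5 FPKM in untreated vector cells, 4.17, 4.69 and 4.61 with metformin, 11.2, 11.1 and 10.6 in untreated GPD1 cells and 8.22, 8.34 and 8.16 with metformin. Its level was higher in GPD1 cells under both conditions, but its metformin changes were close and the interaction did not pass (0.08, SE 0.06, adjusted p = 0.331).

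Among 13 tested genes of glycerolipid synthesis, which starts from glycerol 3-phosphate, 2 were higher and 4 lower (median -0.30; 3 and 3 with upper-quartile factors). LPIN2, a phosphatidate phosphatase, was at 8.33, 8.62 and 8.33 FPKM in untreated vector cells and at 8.28, 8.20 and 7.46 with metformin, against 11.6, 11.1 and 11.8 and then 4.57, 5.14 and 4.81 in GPD1 cells (interaction -1.03, SE 0.07, adjusted p = 2.4e-06). The fall was seen in GPD1 cells, while the vector change did not pass. The acyltransferases GPAT4 (-0.76) and GPAM (-0.45), which act on glycerol 3-phosphate itself, and the lipase PNPLA2 (-0.30) were lower too, while GPAT3 (0.49), of the same step, and AGPAT1 (0.54), of the next step, were higher.

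Of 16 tested genes of fatty acid synthesis 8 were higher and 1 lower (median 0.28), beside 19.1% and 26.8% of all tested genes. ACLY, which makes cytosolic acetyl-CoA from citrate, fell from 117, 114 and 114 to 49.1, 49.9 and 51.7 FPKM in vector cells but from 99.3, 101 and 98.2 to 77.5, 80.0 and 85.9 in GPD1 cells (interaction 0.89, SE 0.06, adjusted p = 1.6e-06). FADS2 (0.93) and FADS1 (0.78), desaturases, ACSL3 (0.83), an acyl-CoA ligase, and ACACA (0.72), acetyl-CoA carboxylase, were also higher, and SCD (-0.25) was lower. FADS2 overlaps FEN1 on the same strand, so reads may be shared. Of 22 tested genes of cholesterol synthesis and uptake 4 were higher and 5 lower (6 and 2 with upper-quartile factors; the median of -0.06 changed sign relative to all genes with the scaling). The early enzymes HMGCS1 (-0.60) and SQLE (-0.31) and the regulator SREBF2 (-0.44) were lower, and the later enzymes PMVK (0.62), LSS (0.41), MSMO1 (0.24) and FDPS (0.24) were higher.

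Of 16 tested glycolysis genes 8 were higher and 2 lower (median 0.31), beside 19.1% and 26.8% of all tested genes. SLC2A3, a glucose transporter, rose from 5.93, 6.47 and 6.39 to 24.4, 16.9 and 21.0 FPKM in vector cells and from 4.67, 4.13 and 4.63 to 34.8, 42.6 and 39.3 in GPD1 cells (interaction 1.29, SE 0.16, adjusted p = 1.0e-04). The enzymes PGAM1 (0.58), ENO1 (0.55), GAPDH (0.52) and PGK1 (0.41), which act late in the pathway, and GPI (0.26), PFKP (0.31) and PFKL (0.34), which act early, were higher, ENO1 because it fell 1.84-fold in vector cells and 1.25-fold in GPD1 cells. PFKFB3, which makes the activator of phosphofructokinase, and HK1 were lower, at -0.63 and -0.35.

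PSAT1, the transaminase of serine synthesis, reversed. It was at 104, 104 and 98.5 FPKM in untreated vector cells and at 49.5, 49.9 and 55.6 with metformin, against 86.9, 88.1 and 91.6 in untreated GPD1 cells and 133, 136 and 131 with metformin (interaction 1.55, SE 0.07, adjusted p = 3.0e-07). Untreated vector and GPD1 libraries were close, and the treated ones parted to either side. Of 10 tested genes of serine and one-carbon synthesis 4 were higher and 0 lower (5 and 0 at an unadjusted p under 0.05, limma; median 0.28), the others being MTHFD1 (0.50), PHGDH (0.30) and SHMT1 (0.29), while the mitochondrial enzymes SHMT2 (0.03) and MTHFD2 (-0.01) did not pass.

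In the ATF4 and CHOP stress response metformin raised 16 of 18 tested genes in vector cells and 13 in GPD1 cells, and the interactions were divided, with 4 higher and 8 lower (median -0.09). With upper-quartile factors 7 were higher and 5 lower. ATF4, the transcription factor at its head, rose from 86.8, 81.0 and 79.3 to 237, 242 and 253 FPKM in vector cells and from 82.7, 82.7 and 84.0 to 163, 162 and 166 in GPD1 cells (interaction -0.58, SE 0.06, adjusted p = 1.8e-05). The CHOP gene DDIT3 rose 19.8-fold in vector cells and 11.2-fold in GPD1 cells (interaction -0.90, SE 0.17). TRIB3, a pseudokinase, rose 3.39-fold in vector cells while its GPD1 change did not pass (interaction -1.54, SE 0.22). In contrast NUPR1, a small stress-induced chromatin protein, rose 3.85-fold and 13.5-fold (interaction 1.25, SE 0.13), and PPP1R15A, which restarts translation, rose 7.52-fold and 15-fold (interaction 1.01, SE 0.12). ASNS, asparagine synthetase, was higher at 0.87 but did not pass in every fit with 1 library left out (largest adjusted p = 0.0841). GDF15, a secreted stress hormone, rose 19.9-fold and 21.9-fold, and its interaction did not pass (0.12, adjusted p = 0.365).

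Of 18 tested chaperones and sensors of the endoplasmic reticulum 2 were higher and 8 lower (median -0.02; 7 and 6 with upper-quartile factors). HSPA5, the chaperone BiP, rose from 124, 124 and 119 to 493, 512 and 563 FPKM in vector cells and from 123, 121 and 125 to 262, 264 and 254 in GPD1 cells (interaction -1.01, SE 0.07, adjusted p = 1.8e-06). The treated vector libraries were all above the treated GPD1 libraries. MANF, a secreted factor of the unfolded protein response, rose 1.42-fold and fell 1.27-fold (interaction -0.77), and EDEM1 (-0.66), DNAJB9 (-0.61), SDF2L1 (-0.59) and HERPUD1 (-0.56) were lower. Among 20 tested cytosolic aminoacyl-tRNA synthetases 5 were higher and 5 lower, with a median of 0.02 (11 and 3 with upper-quartile factors). Among 14 amino acid transporters 1 was higher and 2 lower, with a median of 0.09 (4 and 1 with upper-quartile factors). SLC38A2 at -0.96 was the largest.

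Genes for the control of AMPK and mTORC1, the kinases that sense energy and amino acids, were mostly lower: 15 of 23 tested against 1 higher, with a median of -0.38 (11 and 5 with upper-quartile factors). RRAGC, a GTPase that brings mTORC1 to the lysosome, went from 2.93, 2.65 and 3.05 to 8.68, 8.90 and 8.50 FPKM in vector cells and stayed at 2.57, 2.69 and 2.75 against 2.96, 2.59 and 2.43 in GPD1 cells (interaction -1.33, SE 0.09, adjusted p = 1.4e-06). Its partner RRAGA rose 1.23-fold in vector cells and fell 1.56-fold in GPD1 cells (interaction -0.92, SE 0.06), and FLCN, which activates RRAGC, had an interaction of -1.30. The sestrins SESN2 and SESN1 (-1.40), the mTORC1 inhibitors TSC1 (-0.79) and TSC2 (-0.36), the AMPK kinase STK11 (-0.60) and the AMPK subunits PRKAB1 (-0.66), PRKAB2 (-0.64), PRKAG2 (-0.61), PRKAA1 (-0.35) and PRKAA2 (-0.31) were lower as well. The list thus holds activators and inhibitors of the same kinases, and members of both kinds were lower. MTOR was the higher gene at 0.17. STK11 is known to be mutated in A549, so its RNA level is no measure of its activity. Among 10 tested genes of the MondoA and MYC network 4 were lower and 0 higher (the same counts at an unadjusted p under 0.05, limma), with a median of -0.38, led by ARRDC2 (-0.89) and MLXIP (-0.58), which encodes MondoA.

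Of 24 tested p53 targets 12 were lower and 2 higher (median -0.31; 10 and 6 with upper-quartile factors), SESN2 and SESN1 standing on this list as well. Besides BTG2, the lower ones included PLK2 (-1.15), AEN (-1.14), ZMAT3 (-1.07) and MDM2 (-0.94), which rose 1.90-fold in vector cells with no passing change in GPD1 cells. CDKN1A, the cell cycle inhibitor p21, was 1 of the 2 higher genes: it rose from 26.3, 26.7 and 28.2 to 111, 109.5 and 87.0 FPKM in vector cells and from 38.6, 34.3 and 35.0 to 186, 181 and 204 in GPD1 cells (interaction 0.50, SE 0.13, adjusted p = 0.00875). Among 22 tested apoptosis genes 4 were higher and 7 lower (median -0.19; 7 and 7 with upper-quartile factors). These shares, 18.2% and 31.8%, were near those of all tested genes. BBC3, the proapoptotic protein PUMA, rose 9.21-fold in vector cells and 4.93-fold in GPD1 cells (interaction -0.87, SE 0.07), the death receptor TNFRSF10B rose 2.84-fold and 1.53-fold (interaction -0.88, SE 0.08), and BMF rose 2.31-fold in vector cells and fell 4.03-fold in GPD1 cells (interaction -1.50, SE 0.17).

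Mitosis genes fell with metformin in both populations, 26 of 26 tested in vector cells and 25 in GPD1 cells. For 21 the interaction was higher and for 0 lower (22 and 1 at an unadjusted p under 0.05, limma), with a median of 0.50, the highest of the lists with at least 10 tested genes. KIF11, the motor of the bipolar spindle, went from 40.1, 41.4 and 39.1 to 4.55, 4.60 and 4.44 FPKM in vector cells and from 36.0, 37.9 and 35.6 to 8.26, 8.87 and 9.51 in GPD1 cells (interaction 0.97, SE 0.07, adjusted p = 2.8e-06). The treated GPD1 libraries stood above the treated vector libraries, and both far under the untreated ones. TOP2A, the topoisomerase of dividing cells, fell 2.88-fold in vector cells and 1.46-fold in GPD1 cells, BUB1, a spindle checkpoint kinase, 3.24-fold and 1.61-fold, and MKI67, the proliferation marker Ki-67, 9.68-fold and 5.13-fold.

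Of 32 tested DNA replication genes 12 were higher and 2 lower, with a median of 0.17 (19 and 2 with upper-quartile factors). PCNA, the sliding clamp, fell 2.29-fold in vector cells and 1.40-fold in GPD1 cells (interaction 0.72, SE 0.10). The 2 lower genes, FEN1 and LIG1, encode the nuclease and the ligase that finish Okazaki fragments. FEN1 went from 35.5, 34.9 and 34.1 to 4.27, 3.88 and 3.30 FPKM in vector cells and from 32.3, 35.7 and 33.4 to 0.945, 0.978 and 1.28 in GPD1 cells (interaction -1.18, SE 0.11, adjusted p = 1.9e-05), and LIG1 had an interaction of -0.47 (SE 0.06).

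Of 61 tested cytosolic ribosomal protein genes 28 were higher and 1, RPS27, was lower, with a median of 0.29, and with upper-quartile factors 44 were higher. RPSA, a protein of the small subunit, was at 107, 109 and 105 FPKM in untreated vector cells and at 118, 127 and 128 with metformin, against 76.1, 75.1 and 75.1 and then 129, 131 and 126 in GPD1 cells (interaction 0.55, SE 0.05, adjusted p = 2.0e-05). RPL24 rose 1.54-fold in vector cells and 2.05-fold in GPD1 cells. Of 25 tested genes of ribosome biogenesis 14 were lower and 1 was higher, with a median of -0.40 (12 and 6 with upper-quartile factors). NOP58, a core protein of the box C/D snoRNPs, went from 19.6, 17.8 and 17.8 to 12.9, 10.1 and 10.1 FPKM in vector cells and from 19.2, 20.2 and 17.4 to 4.22, 4.10 and 3.91 in GPD1 cells (interaction -1.28, SE 0.12, adjusted p = 1.7e-05). Its partner NOP56 fell 3.31-fold and 7.72-fold, and POLR1C, a subunit of RNA polymerases I and III, rose 1.58-fold in vector cells and fell 1.65-fold in GPD1 cells. Ribosomal protein genes have many processed copies, and the sources used here do not say how reads on these were assigned.

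Inflammatory and oxidative stress genes were mixed. Of 18 tested NF-kB and inflammatory genes 5 were higher and 6 lower (6 and 4 with upper-quartile factors; the median of -0.09 changed sign relative to all genes with the scaling). The chemokines CXCL5 and CXCL1 (1.00) were higher, the second losing its call with a pseudocount of 0.1, and SOD2 (-1.18), TNFAIP2 (-1.0), BIRC3 (-0.91) and PTGS2 (-0.71) were lower. PTGS2, cyclooxygenase 2, rose 14.5-fold in vector cells and 7.61-fold in GPD1 cells to similar levels of 33.4 and 33.1 FPKM. Of 24 tested NRF2 targets and aldo-keto reductases 9 were higher and 4 lower, with a median of 0.12 (13 and 3 with upper-quartile factors). AKR1B1, aldose reductase, fell 1.88-fold in vector cells and rose 1.15-fold in GPD1 cells (interaction 1.09, SE 0.08), while AKR1C1, a steroid reductase, rose 1.97-fold and 1.20-fold (interaction -0.70, SE 0.08). Of 15 tested hypoxia genes 2 were higher and 6 lower (median -0.03; 4 and 3 with upper-quartile factors), led by KDM3A, a histone demethylase (-1.09), and HIF1A itself (-0.71), and of 22 genes of lysosome and autophagy 4 were higher and 6 lower (median -0.12; 6 and 5 with upper-quartile factors).

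**Figure D5:**
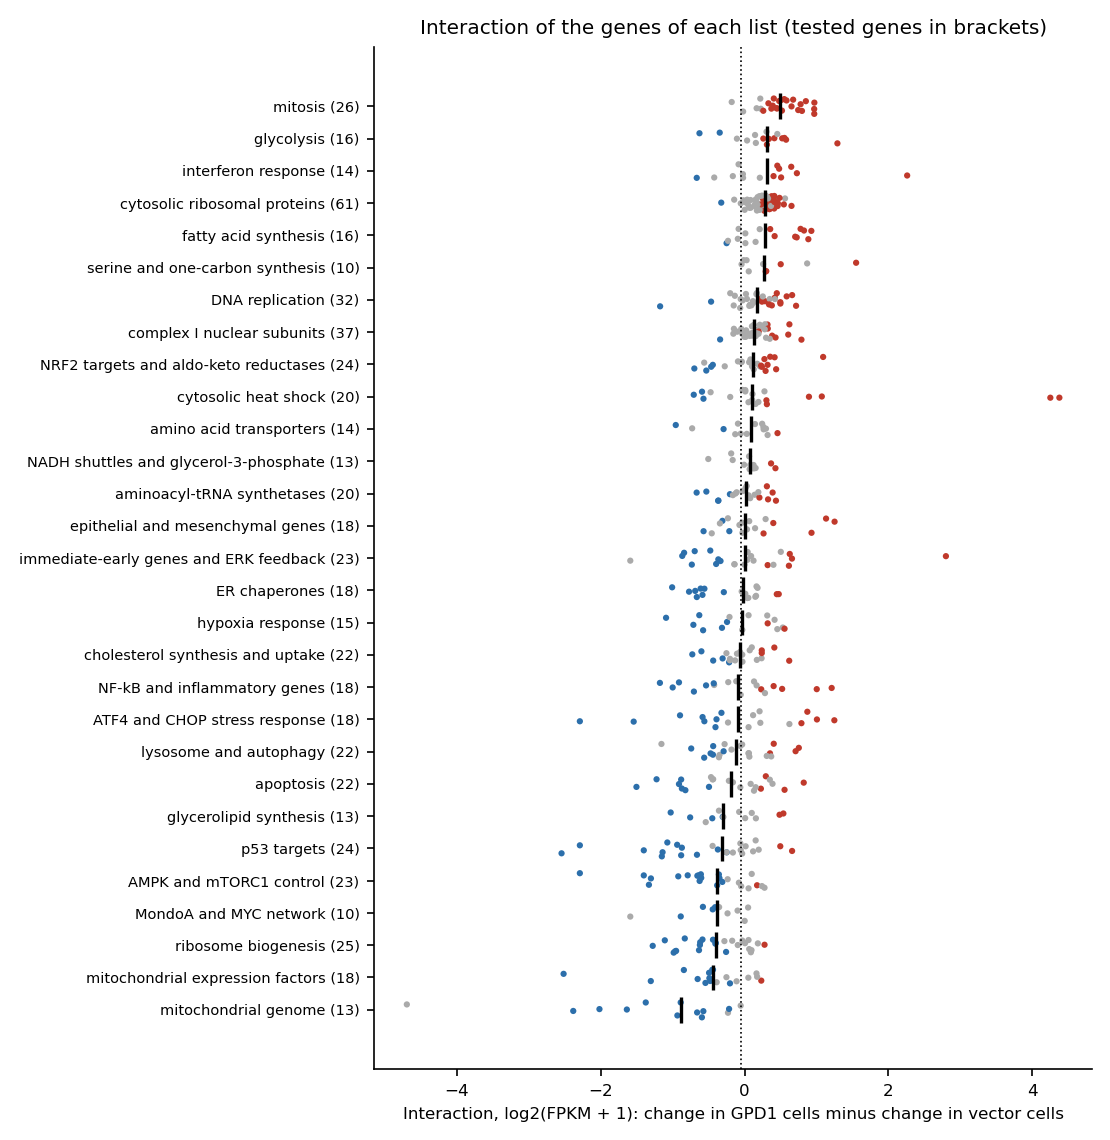
Interaction of each tested gene (points, x axis, log2 scale) by gene list (y axis, number of tested genes in brackets), in red where higher and blue where lower with an adjusted p under 0.05 and grey where not passed, with the list median as a black bar and the median of all tested genes (-0.04) as a dotted line. Among the lists plotted, each with at least 10 tested genes, mitosis has the highest median (0.50) and the mitochondrial genome the lowest (-0.89).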

How the data were processed

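RNA of 12 A549 libraries (24 samples in the series, the 12 of the other line not analysed here) was analysed from 1 table. The authors deposited 1 value per gene and library, read here as FPKM, for which the submitters' processing notes name HISAT2 2.1.0, CASAVA 1.8, edgeR and GRCh38 without their roles or order. The header names no unit, and FPKM was inferred because low values multiplied by exon length (GENCODE 29, 97.2% of genes at the same locus) fell on whole multiples within 0.02 for 64.9% to 69.7% of genes of up to 10 steps. RPKM would look the same. Strandedness is not given in the sources used here, so reads of overlapping and antisense genes may be mixed.

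Values were tested as log2(FPKM + 1) with limma 3.58.1 in R 4.3.3 (4 group means, trended variance, Benjamini-Hochberg over 12607 genes averaging 1 FPKM or more, threshold 0.05). A difference on this scale understates the change of low genes. Fold changes are ratios of mean FPKM. The test was checked on simulated data. Named genes were the 10 largest called interactions in each direction among protein-coding genes averaging 5 FPKM or more, with even libraries (within-group ratio under 5) and a call in every fit with 1 library left out, then the 6 largest reversals in each direction and the 3 smallest p-values of each list. Others were added from the lists or chosen after their values were seen. The members and lists were chosen with earlier results of these data known. Alternatives changed the scaling, pseudocount, filter, variance trend, replicate block and libraries. Some genes of the lists are counted but not reported here by name.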

Additional observations from a re-analysis of the deposited data

Results flagged for a closer look

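The interaction is itself a test of the difference between the metformin effects in GPD1 and vector cells, and it passed for 5791 genes (limma, adjusted p under 0.05). The groups hold 3 libraries each, so single libraries were not tested as outliers. For 799 genes both metformin changes passed with opposite signs.

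Among the named genes of this kind, the metformin change was higher in GPD1 cells for HSPA1A (4.25), COL4A1 (1.92), COL4A2 (1.85), PSAT1 (1.55), DYNLT1 (1.45), UPK3B (1.25), CXCL5 (1.21), APOC1 (1.19) and COL18A1 (1.18). It was lower for BTG2 (-2.55), KLF2 (-2.37), SESN2 (-2.29), FAM102A (-2.24), IFFO2 (-2.19), JMY (-2.06), ASB1 (-2.04), ANKRD33B (-2.02), SPTY2D1 (-1.84), MTMR4 (-1.79), SDE2 (-1.73), MARS2 (-1.67) and GLIS2 (-1.66). The vector libraries of HSPA1A with metformin lay on both sides of the untreated ones, and its neighbour HSPA1B is not among these reversals. FAM102A had uneven libraries and a wide error.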

How the results depend on the processing

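Of 12607 genes 5791 passed. The count was 5359 to 5766 with 1 library left out, with at least 5209 genes called in the same direction, and 5635 to 6463 over the scalings tried. With a mean of at least 5 FPKM, 3029 of the 5533 genes then tested passed. At an absolute difference of at least 1 log2 unit, 863 of the 12607 did. For metformin in vector cells the counts were 14315 of 35437 genes with no filter and 4373 of 5533 with a mean of at least 5. They were 2511 past 1 log2 unit and 8977 to 9387 with 1 library left out, both of 12607. For metformin in GPD1 cells the last 3 of these counts were 4361, 2161 and 8915 to 9388, of the same numbers of genes. The interaction of GPD1 itself turned from -0.19 to 0.25 with upper-quartile factors, and the cause was not tested. Of the genes named as called, IFI6, JUNB, DUSP6, HK1, PHGDH, MSMO1, MTOR, PRKAA2, ASNS and KLF10 did not pass in every fit with 1 library left out (limma, largest adjusted p 0.0994, for MSMO1), and CXCL1 did not pass with a pseudocount of 0.1. The length, GC and protein-coding alternatives were chosen after seeing the data and gave 6079, 6132 and 5191 calls. With the replicate number as a block 5643 genes passed (2326 higher, 3317 lower). The numbers did not pair the samples, since residual correlations of same-numbered libraries ran from -0.0651 to 0.0561 and 5 of 12 libraries matched best with their own number. The depth of 13.3 M to 18 M limits genes near 1 FPKM.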

Other observations

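Several groups of genes on none of the lists were taken by symbol or gene type after the results were seen. Among all tested genes 26.8% were lower and 19.1% higher. Of 12 tested Krüppel-like factors 7 were lower and 1, KLF10, was higher, with a median interaction of -0.51. KLF4, a factor of epithelial differentiation, had an interaction of -1.31 (adjusted p = 1.3e-06, limma), rising 1.43-fold with metformin in vector cells and falling 3.71-fold in GPD1 cells. Of 174 tested genes with ZNF symbols, mostly zinc finger transcription factors, 80 were lower and 12 higher, with a median of -0.31 against -0.04 for all tested genes. ZNF217 rose 1.27-fold in vector cells and fell 1.78-fold in GPD1 cells (interaction -1.04).

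Of 149 tested small nucleolar RNA genes, which guide the modification of ribosomal RNA, 47 were lower (31.5%) and 9 higher (6.04%), with a median of -0.58. The lower share was near the 26.8% of all tested genes, and the higher share was under their 19.1%. Several, such as SNORD36A, SNORA18 and SNORD27, were uneven, with a within-group ratio of 5 or more. SNORD42B rose 14.5-fold in vector cells and 2.37-fold in GPD1 cells (interaction -2.51). SNORD14D and SNORD14E, which lie within introns of HSPA8 on the same strand, went the other way. SNORD14D was at 44.9, 47.8 and 25.3 FPKM in GPD1 cells with metformin and at most 4.17 in the other 9 libraries (interaction 4.53). SNORD14E had an interaction of 4.28. These RNAs are short, and reads from the host transcript cannot be told apart from them here.

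In 4 equal groups by exon length, from short to long, the share of lower genes was 17.4%, 23.1%, 32.5% and 34.4%, and that of higher genes 17.6%, 22.3%, 18.6% and 17.8%. Over 12586 genes, which are not independent replicates, Spearman's rho between exon length and interaction was -0.079.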
